A study of Mus musculus with 8 samples.

Results

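The genes described here encode the subunits of the oxidative phosphorylation system. They were taken as every gene of the array whose symbol starts with Ndufa, Ndufb, Ndufc, Ndufs or Ndufv and a digit, with Uqcr, with Cox4 to Cox8 or with Atp5, together with Sdha, Sdhb, Sdhc and Sdhd. This gave 85 of 26894 genes, measured by 131 probes: 37 genes of complex I, 4 of complex II, 8 of complex III, 18 of complex IV and 18 of complex V. The choice used symbols and no measured value. Some of these symbols need a remark. Atp5c1-ps is a pseudogene. Atp5s and Atp5sl, called Dmac2l and Dmac2 in RefSeq, are not core subunits and are counted here with complex V by symbol only. Ndufa4, counted here with complex I by its symbol, is today assigned to complex IV.

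The dentate gyrus, the hippocampal region in which neurons are born in the adult, was profiled in male C57BL/6 mice at 8 to 9 weeks of age. Both Derlins sit in the membrane of the ER, the endoplasmic reticulum, and help to clear proteins that fail to fold. Derlin-1 control mice were Derlin-1 flox/flox, that is, both copies of the gene carried loxP sites, and Derlin-2 control mice were Derlin-2 flox/flox. The KO mice of each line (Derlin-1 KO, Derlin-2 KO) had the same floxed gene and, in addition, Cre recombinase driven by the nestin promoter, which acts in neural progenitors, so that neurons and glia derived from them lose the gene while microglia, vessels and blood do not. The genotype label of the KO samples names only the floxed gene, so that KO and control were told apart by the sample titles. Cre was absent from both control groups, and an effect of Cre itself cannot be told apart from the loss of the gene. Each of the 4 groups had 2 arrays of total RNA, and the sources used here do not say whether an array was hybridised with RNA of 1 mouse or of several. The p-values therefore measure only the spread between these samples, which may be technical. In each line, KO was compared with the control of the same line, and the differences of the lines were then compared.

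Oxidative phosphorylation couples the oxidation of NADH and succinate to ATP synthesis in the inner mitochondrial membrane. Complexes I and II feed electrons into coenzyme Q, complex III passes them to cytochrome c, complex IV reduces oxygen, and complex V, the ATP synthase, uses the proton gradient built by complexes I, III and IV. Most subunits are encoded in the nucleus and a few in mitochondrial DNA. Neurons rely on this pathway for most of their ATP.

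Nuclear subunit genes lie far apart in the genome, and transcription factors such as NRF1, GABP (which binds ETS sites) and YY1 are known to act at many of their promoters. To show what these genes share, the RefSeq promoter windows of build GRCm38.p6 were searched for the NRF1 core GCGCATGCG, the ETS site CCGGAAGT and the YY1 site AAGATGGC on both strands. A window spans 250 bases before to 50 bases after a gene's start. The NRF1 core is nearly its own reverse complement, so that one stretch can match on both strands, and it was counted once per gene. Of the 85 genes, 69 were matched to a window by gene ID, and 16 had none, among them Cox6a2, Cox6c, Ndufb9, Sdhc and Uqcrq.

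The NRF1 core was present in 8 of the 69 genes (11.6%), against 527 of all 27025 genes with a window (1.95%). The YY1 site was present in 11 genes (15.9%, against 3.19% of all genes) and the ETS site in 5 (7.25%, against 4.31%). At least 1 of these motifs was found in 23 of the 69 genes (33.3%), against 8.94% of all genes. By complex, 10 of 32 genes of complex I held a motif, 0 of 3 of complex II, 3 of 5 of complex III, 2 of 13 of complex IV and 8 of 16 of complex V. A match describes the letters of the window and is not a binding site shown by these data.

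The stretches below are shown because they carry these motifs, in capitals, and the values of their genes follow by complex and in a paragraph of their own. Those of Atp5g2, Atp5k, Ndufa11 and Cox6a1 hold the NRF1 core on both strands, and its first base lies 42, 50, 60 and 162 bases before the start, respectively.
Atp5g2 (chr15:102671048-102671127, minus strand): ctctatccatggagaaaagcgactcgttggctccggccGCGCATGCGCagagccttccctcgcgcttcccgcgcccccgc
Atp5k (chr5:108434400-108434479, minus strand): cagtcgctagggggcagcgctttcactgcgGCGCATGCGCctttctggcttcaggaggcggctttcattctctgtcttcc
Ndufa11 (chr17:56717682-56717761, plus strand): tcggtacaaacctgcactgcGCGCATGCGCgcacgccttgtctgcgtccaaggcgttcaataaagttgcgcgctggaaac
Cox6a1 (chr5:115349079-115349158, minus strand): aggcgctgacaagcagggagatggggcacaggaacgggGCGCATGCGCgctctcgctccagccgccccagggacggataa
The next pair hold the ETS site, 66 bases before the start of Uqcr11 and, on the opposite strand, 39 bases before that of Atp5h.
Uqcr11 (chr10:80406832-80406911, minus strand): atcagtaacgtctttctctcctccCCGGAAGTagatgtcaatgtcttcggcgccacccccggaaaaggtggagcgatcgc
Atp5h (chr11:115419920-115419999, minus strand): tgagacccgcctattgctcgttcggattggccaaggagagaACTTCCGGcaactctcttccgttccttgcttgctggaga
The YY1 site lay past the start in 9 of its 11 genes, with its first base between bases 23 and 39 of the transcript. It begins at base 25 in Ndufs7, 23 in Ndufc1 and 36 in Ndufs4.
Ndufs7 (chr10:80249459-80249488, plus strand): tgaaggccgaggccAAGATGGCggcgctgg
Ndufc1 (chr3:51408916-51408945, minus strand): agcctgcggaacAAGATGGCgccgtccgta
Ndufs4 (chr13:114388045-114388074, minus strand): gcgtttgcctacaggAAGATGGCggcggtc

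**Figure D1:**
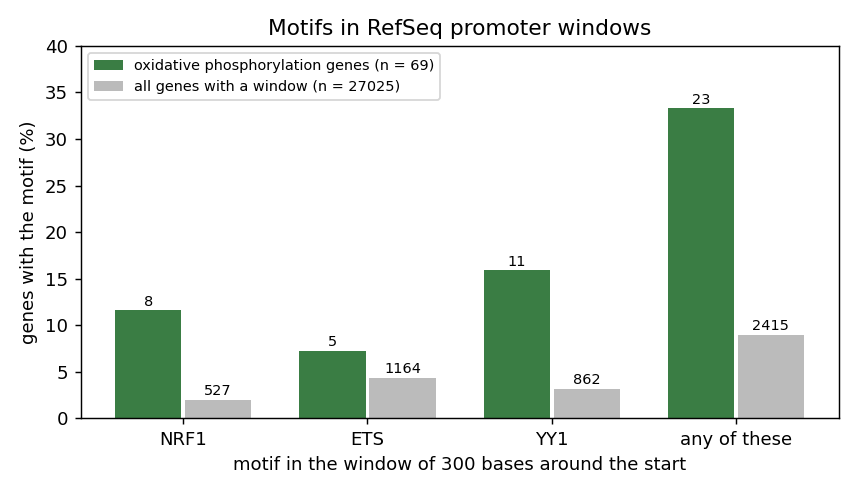
Share of genes (%) whose RefSeq promoter window holds the NRF1 core, the ETS site, the YY1 site or any of these, for 69 oxidative phosphorylation genes (green) and all 27025 genes with a window (grey). Numbers above bars count genes with the motif, and the green bar for any motif stands at 33.3% against 8.94%.

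Per array, 38247 to 40089 of 56605 probes exceeded background clearly, and 19922 genes were tested. The labelled tissue carried its markers: all 8 markers of dentate granule neurons, among them Prox1 and Calb1, were well above background on the 8 arrays, as were all listed markers of the other cell types the dissection could hold. The lines were on separate slides, so that line and slide cannot be told apart, while KO and control of a line shared a slide. The targeted genes followed the labels in part. Derl2 fell by 0.65 and 1.05 on the log2 scale with its 2 probes in Derlin-2 KO, with unadjusted p of 0.00051 and 0.000317 and limma's adjusted p of 0.2573 and 0.2173. Derl1 differed by -0.20 with its brighter probe and by 0.46, against the label, with its dimmer probe in Derlin-1 KO, with unadjusted p of 0.102 and 0.00793 and limma's adjusted p of 0.9999 for each, and where its probes lie against the deleted part is not given in the sources used here. The labels of the Derlin-1 arrays were therefore not checked by the target.

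Of the 85 genes, 84 were well above background, all 84 of them on each of the 8 arrays, and entered the test with their brightest probe. The exception was Cox8c, a testis form of subunit VIII, which stayed near background on all arrays (not well above it; log2 signal 1.98 to 2.23). The mean log2 signal was 12 or more for 76 of the 84 genes. The 8 dimmer ones were Atp5s and 7 tissue-restricted isoforms or paralogs: Cox4i2, Cox6a2, Cox6b2, Cox7a1, Cox7b2, Cox8b and Ndufa4l2. In 72 of the 84 genes the 8 arrays spanned less than 0.5 on the log2 scale. In bulk tissue, fewer cells of a type and less RNA per cell cannot be told apart.

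No oxidative phosphorylation gene passed the test in either line. With limma and Benjamini-Hochberg adjustment over all probes, 0 of 84 were called in Derlin-1 KO (0% of all genes were), 0 of 84 in Derlin-2 KO (0.0454% of all genes) and 0 of 84 for the difference between the lines (0.00505%). At an unadjusted p under 0.05 there were 2 of 84 in Derlin-1 KO (Cox6a2 and Atp5s; 4.25% of all genes), 0 in Derlin-2 KO (4.64%) and 0 for the difference (4.5%). The 95% intervals rest on the same spread between arrays, which may be technical. In each line, 80 of 84 intervals lay within a 1.5-fold change in either direction. For the contrast between the lines, 72 of 84 did. Within the lines, those that reached further belonged to Cox6a2, Cox7b2 and Cox8b in both, Cox7a1 in the Derlin-1 line and Ndufa4l2 in the Derlin-2 line, all of them dim. The difference was smaller than 0.1 on the log2 scale in 65 of 84 genes in Derlin-1 KO and in 70 of 84 in Derlin-2 KO. A miss of the threshold does not show that the groups are alike.

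**Figure D2:**
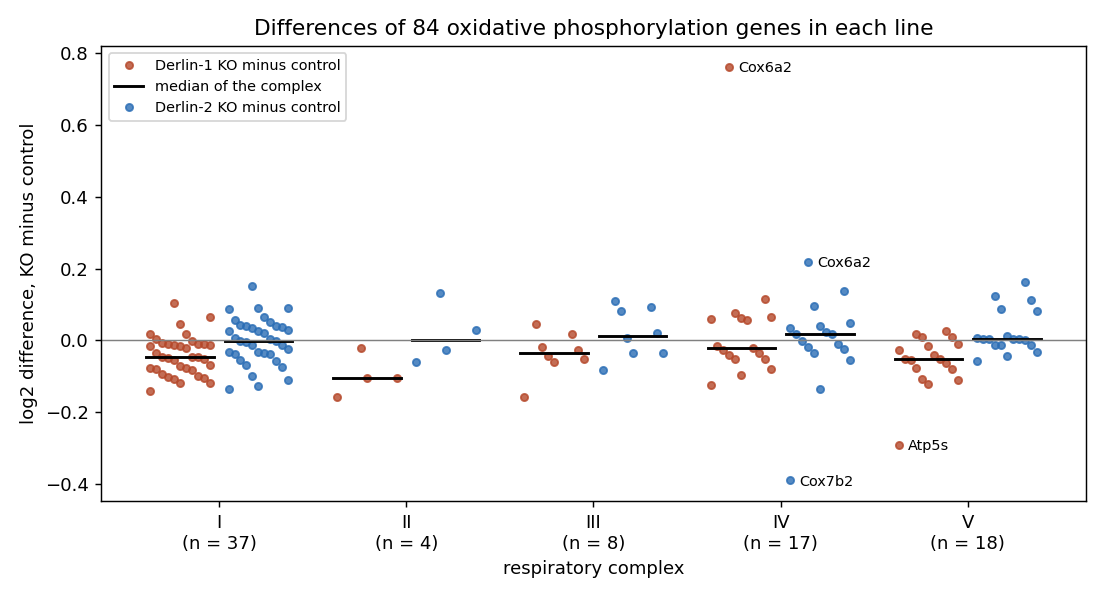
Log2 difference of KO minus control (y axis) for each of the 84 genes tested, by respiratory complex (x axis), in the Derlin-1 line (red) and the Derlin-2 line (blue), with the median of each complex as a black bar. Nearly all points lie near 0, Cox6a2 stands highest at 0.76 in the Derlin-1 line and Cox7b2 lowest at -0.39 in the Derlin-2 line.

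In most of these genes, as in most genes tested, the gap between the controls exceeded the difference between KO and control. A gap between single arrays varies more than a difference between means of 2 arrays. A majority would thus arise even without an effect. The 2 controls of the Derlin-1 line differed by a median of 0.10 on the log2 scale over the 84 genes, and the median size of the difference between KO and control was 0.052. In 56 of 84 genes the gap between the controls was larger than the difference between KO and control (67.1% of all genes). In the Derlin-2 line this was so in 66 of 84 genes (69% of all genes), with a median gap of 0.13 and a median difference of 0.036.

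As a list, the genes sat slightly low in Derlin-1 KO and near 0 in Derlin-2 KO. The median difference was -0.043 in Derlin-1 KO, beside -0.020 over all genes tested. There, 65 of 84 genes lay below 0 and 22.6% above, beside 44% of all genes above 0. Both KO arrays lay below both control arrays in 31 of 84 genes (36.9%, beside 17.9% of all genes) and above them in 2 (Cox6a2 and Ndufa2; 16.2% of all genes). In Derlin-2 KO the median was 0.00375, beside 0.00786 over all genes, with 7 genes below both controls (14.6% of all genes) and 14 above (17.9% of all genes). With each array scaled by its 75th percentile in place of quantile normalization, the count below in Derlin-1 KO was 15 of 84 (12.8% of all genes), and the count above in Derlin-2 KO was 28 (20.8% of all genes). That scaling left 48 of 84 genes with a difference below 0 in Derlin-1 KO. Without Derlin-1 control replicate 2 the median in Derlin-1 KO was -0.016, above that of all genes by 0.013, and leaving out control replicate 1 instead gave -0.079.

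Array by array, the median of the 84 genes relative to the mean of the controls was -0.028 and 0.028 in the Derlin-1 controls and -0.066 and -0.023 in the KO arrays. One KO array thus lay within the range of the controls. In the Derlin-2 line the values were -0.012 and 0.012 for the controls and -0.00047 and 0.020 for the KO arrays, which overlapped. Markers of other cells moved in the Derlin-1 line as well. All 5 blood markers had a difference below 0 (median -0.53), with a log2 summed signal of 14.89 and 16.04 in the controls and 14.95 and 15.07 in the KO arrays, so that control replicate 2 stood apart. All 8 microglia markers also lay below 0 (median -0.11), at 15.33 and 15.29 in the controls and 15.19 and 15.12 in the KO arrays. Of 8 choroid plexus markers, 7 lay above 0 (median 0.27). Their log2 summed signal was 10.73 and 10.83 in the KO arrays and 10.53 in the lower control. The lower KO array lay barely above the higher control. Relative to the mean of the controls, the median of these markers was -0.15 and 0.15 in the controls and -0.0443 and 0.553 in the KO arrays. By this measure the lower KO array lay between the controls. Every marker of these lists was well above background on all arrays, and their part in the median of the 84 genes was not tested.

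**Figure D3:**
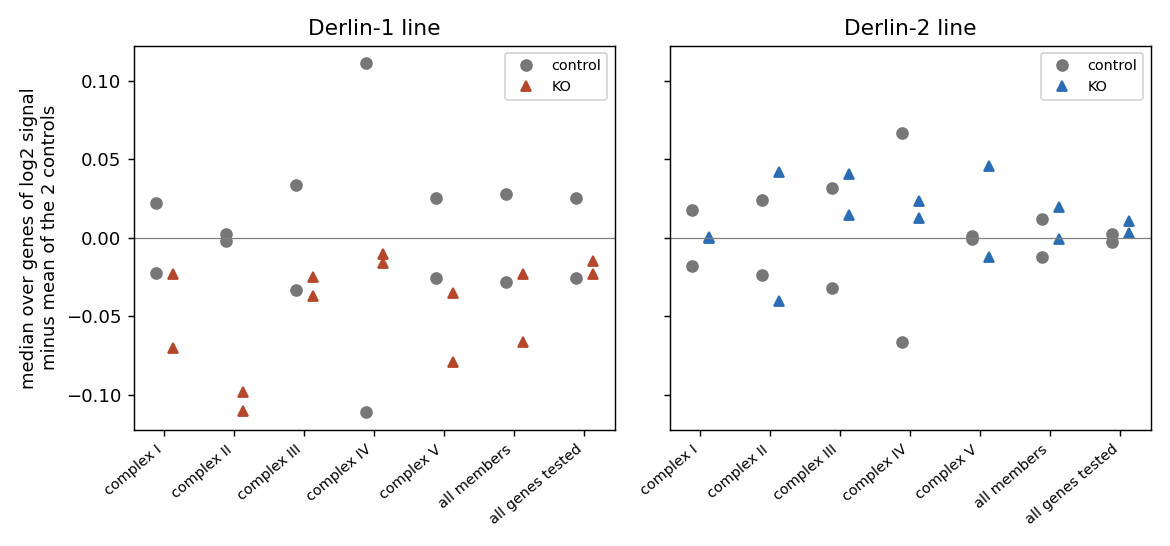
Median over the genes of a list of the log2 signal minus the mean of the 2 controls of the line (y axis), for each complex, all 84 genes and all genes tested (x axis), with controls as grey circles and KO arrays as coloured triangles. The controls of complex IV lie 0.11 above and below 0 in the Derlin-1 line, whereas both KO arrays of complex II lie near -0.10.

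Complex I, the NADH dehydrogenase, had a median difference of -0.046 in Derlin-1 KO, with 6 of 37 genes above 0 (44% of all genes), 17 below both controls (17.9% of all genes) and 1 above both (16.2%). The median was -0.0019 in Derlin-2 KO, with 18 of 37 above 0. Ndufa13, an accessory subunit and the brightest of the complex, gave a log2 signal of 16.53 and 16.50 in Derlin-1 controls, 16.48 and 16.52 in Derlin-1 KO, 16.53 and 16.56 in Derlin-2 controls and 16.60 in both Derlin-2 KO arrays. Its differences were -0.017 (SE 0.089) and 0.052 (SE 0.089).

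Ndufb9, an accessory subunit of the membrane arm, had the largest difference of the complex in Derlin-1 KO. Its log2 signal was 15.66 and 15.65 in the controls and 15.49 and 15.53 in the KO arrays, a difference of -0.14 (SE 0.092; adjusted p = 0.9999 by limma). The groups did not overlap there, whereas in the Derlin-2 line the controls (15.77 and 15.78) lay between the KO arrays (15.82 and 15.73).

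Ndufa1, a small membrane subunit needed for assembly, lay low in one line and high in the other. Its log2 signal was 15.29 in both Derlin-1 controls and 15.20 and 15.21 in Derlin-1 KO, and 15.28 and 15.35 in Derlin-2 controls and 15.47 and 15.46 in Derlin-2 KO. The differences were -0.083 (95% interval -0.302 to 0.136) and 0.15 (-0.069 to 0.369), and the contrast between the lines was -0.23 (adjusted p = 0.8796 by limma). This was the smallest p for the contrast between the lines among members of complex I.

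Ndufa4 had the same pattern, with 15.08 and 15.10 in Derlin-1 controls, 14.96 and 14.98 in Derlin-1 KO, 15.27 and 15.31 in Derlin-2 controls and 15.37 and 15.39 in Derlin-2 KO. Its differences were -0.12 and 0.087. Its paralog Ndufa4l2, known to be induced by hypoxia, was dim and had overlapping groups in both lines, with differences of -0.0032 and -0.13 and an SE of 0.21. In all, 6 of 84 genes had both KO arrays beyond both controls on opposite sides in the lines (5.64% of all genes): Ndufa1, Ndufa4, Sdhb, Cox6a1, Atp5c1 and Atp5g3, each low in Derlin-1 KO and high in Derlin-2 KO. The sign of Cox6a1 in Derlin-2 KO was the opposite with 75th percentile scaling and with the deposited values, and that of Atp5g3 in Derlin-1 KO with the mean of its probes. None of the 84 was on the same side in both (5.75% of all genes).

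**Figure D4:**
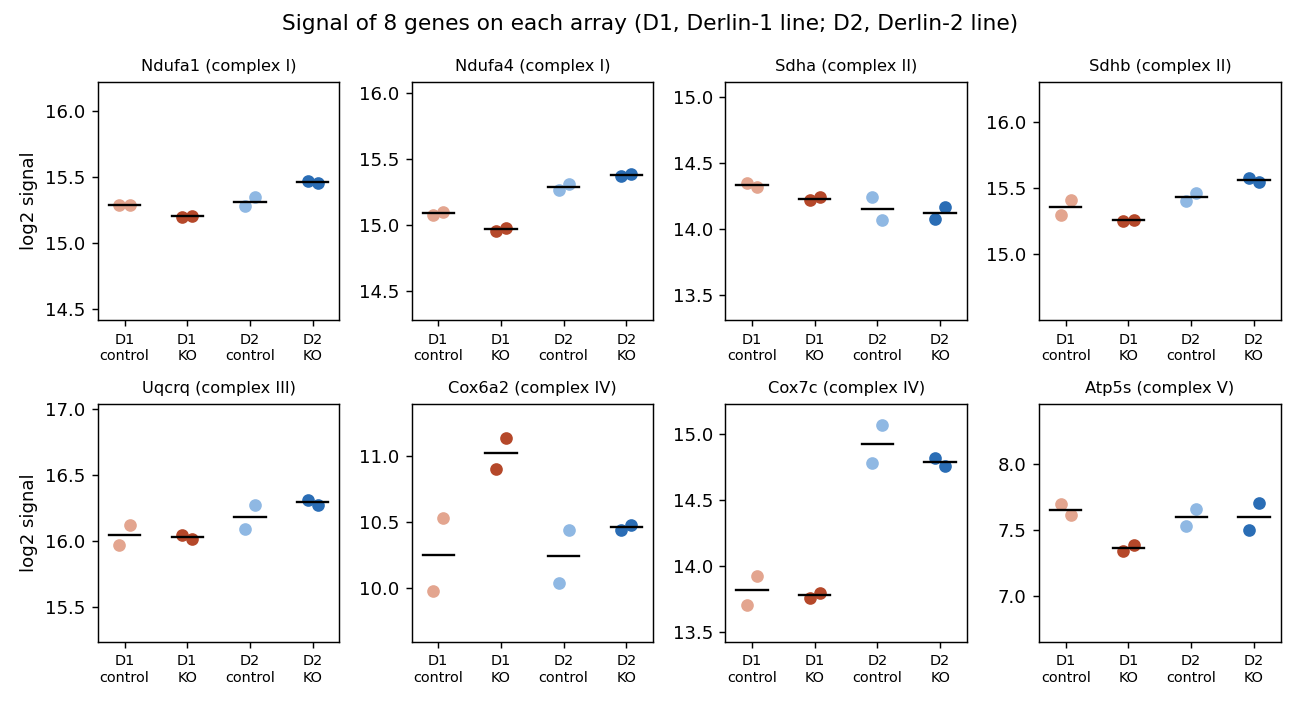
Log2 signal (y axis) of 8 genes on each array (points), with the mean of each group (black bar), with control and KO of the Derlin-1 line to the left of those of the Derlin-2 line. All panels span the same range of 1.8, and Cox6a2 and Atp5s show separate Derlin-1 groups while Cox7c differs between the lines.

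Complex II, succinate dehydrogenase, links the tricarboxylic acid cycle to the chain and has only nuclear subunits. In Derlin-1 KO all 4 genes had a difference below 0, with a median of -0.10, and 3 of 4 lay below both controls (17.9% of all genes). Sdha, the flavoprotein that oxidises succinate, gave 14.35 and 14.32 in Derlin-1 controls and 14.22 and 14.24 in KO, a difference of -0.10 (SE 0.10), and -0.027 in Derlin-2 KO, where the groups overlapped. Of its 3 dimmer probes, 1 had the opposite sign in the Derlin-1 line.

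Sdhb, the iron-sulphur subunit, had a log2 signal of 15.30 and 15.41 in Derlin-1 controls and 15.25 and 15.26 in KO, and of 15.40 and 15.46 in Derlin-2 controls and 15.58 and 15.55 in KO. Its differences were -0.10 (95% interval -0.335 to 0.128) and 0.13 (-0.099 to 0.364), with a contrast between the lines of -0.24 (adjusted p = 0.8901 by limma). The second probe of Sdhb differed by 0.035 and 0.077, so that its sign in the Derlin-1 line was the opposite.

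The membrane anchors differed from each other. Sdhd gave 14.16 and 13.92 in Derlin-1 controls and 13.89 and 13.87 in KO, a difference of -0.16 (SE 0.12) that became -0.035 without control replicate 1. Sdhc gave 12.50 and 12.52 in the controls and 12.43 and 12.55 in the KO arrays, which enclosed the controls.

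Complex III, cytochrome bc1, had a median difference of -0.036 in Derlin-1 KO and 0.013 in Derlin-2 KO. The KO arrays lay below both controls in 1 of 8 genes in the Derlin-1 line (17.9% of all genes). In the Derlin-2 line they lay above both controls in 2 of 8 (17.9% of all genes). The gene low in the Derlin-1 line was Uqcrc1, a core subunit, with 14.20 and 14.06 in the controls and 13.95 and 13.99 in the KO arrays (difference -0.16, SE 0.11). Its difference in Derlin-2 KO was -0.035, with overlapping groups.

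Uqcrq, the brightest gene of the complex, encodes a small subunit that binds near cytochrome b. It gave 15.97 and 16.12 in Derlin-1 controls and 16.04 and 16.01 in KO, which lay between the controls, and 16.09 and 16.27 in Derlin-2 controls and 16.31 and 16.27 in KO. The lower KO array lay barely above the higher control, and the difference of 0.11 (SE 0.11) became 0.021 without Derlin-2 control replicate 1.

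Complex IV, cytochrome c oxidase, is the complex with most tissue-specific isoforms. Its median difference was -0.020 in Derlin-1 KO and 0.017 in Derlin-2 KO. Its genes also varied most between controls: the median over its 17 genes was -0.11 in one Derlin-1 control and 0.11 in the other, with both KO arrays between them.

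Cox6a2, the heart and muscle isoform of subunit VIa, which in brain is known from fast-spiking interneurons, had the largest difference of all 84 genes. Its log2 signal was 9.98 and 10.53 in Derlin-1 controls and 10.90 and 11.14 in Derlin-1 KO. The groups did not overlap, although the controls lay far apart, and the difference was 0.76 (SE 0.22; 95% interval 0.216 to 1.31; 1.7-fold; adjusted p = 0.9999 by limma). It was 0.49 without Derlin-1 control replicate 1 and 1.04 without control replicate 2, and it stayed positive under every alternative run except the filter for bright probes, which leaves this gene out.

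In the Derlin-2 line, Cox6a2 gave 10.04 and 10.44 in the controls and 10.44 and 10.48 in the KO arrays, a difference of 0.22 (SE 0.22). The contrast between the lines was 0.55 (adjusted p = 0.8938 by limma), so that a difference between the lines was not shown. Markers of interneurons are given beside it. Pvalb, the marker of fast-spiking interneurons, had a log2 signal of 11.39 and 12.03 in Derlin-1 controls and 11.62 and 11.86 in KO, with overlapping groups and a difference of 0.031. Of the 8 interneuron markers, 5 lay above 0 in Derlin-1 KO (median 0.099), with a log2 summed signal of 17.80 and 17.81 in the controls and 17.67 and 17.83 in the KO arrays, and 1 of 8 lay above 0 in Derlin-2 KO (median -0.135). Gad1, Gad2, Sst and Npy lay above both controls in Derlin-1 KO (16.2% of all genes did), with differences of 0.18, 0.17, 0.38 and 0.35, and Slc32a1 and Cck below them (17.9% of all genes). In Derlin-2 KO, 5 of the 8 lay below both controls (14.6% of all genes) and 0 above, and Sst and Npy differed by -0.33 and -0.52. All 8 were well above background on all arrays, and their part in the value of Cox6a2 was not tested.

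Cox6a1, the widely expressed isoform of the same subunit, was the brightest gene of the complex. It gave 18.07 and 17.89 in Derlin-1 controls and 17.83 and 17.88 in KO (difference -0.12, SE 0.10), and 17.89 and 17.85 in Derlin-2 controls and 17.90 and 17.91 in KO (0.033). The isoforms of subunit VIa thus had differences of opposite sign in Derlin-1 KO, neither past the threshold.

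The other isoform sets showed no separation of this size in the Derlin-1 line. Cox4i1, the common isoform of subunit IV, differed by 0.064 and 0.095 in Derlin-1 and Derlin-2 KO, and Cox4i2, a hypoxia-responsive isoform, by 0.060 and -0.020. Cox6b1 differed by -0.040 and 0.049, and Cox6b2, a testis isoform, by 0.058 and -0.0016. Their KO arrays overlapped the controls, except those of Cox4i1 in the Derlin-2 line, which lay at 16.25 and 16.26 above controls at 16.07 and 16.24.

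In subunit VII, Cox7a1, the heart and muscle isoform, differed by 0.12 and -0.010 with an SE of 0.23, Cox7a2, the common isoform, by -0.020 and 0.017, and Cox7a2l, a supercomplex factor, by -0.017 and 0.039. Cox7b differed by -0.026 and -0.034. Cox7b2 was the lowest of the 84 genes in Derlin-2 KO, with 9.56 and 9.16 in the controls and 8.99 and 8.94 in the KO arrays, a difference of -0.39 (SE 0.33; 95% interval -1.19 to 0.408). Its groups did not overlap, yet the gap between its controls exceeded the difference.

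In subunit VIII, Cox8a, the common form, differed by -0.080 and -0.025, and Cox8b, a heart and muscle form, by 0.062 and 0.023 with an SE of 0.41. Cox6c, an accessory subunit, was among the 5 smallest p-values of the Derlin-2 line, with 16.40 and 16.41 in the controls and 16.51 and 16.57 in the KO arrays (difference 0.14, SE 0.10, adjusted p = 0.9992 by limma).

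Complex V, the ATP synthase, had a median difference of -0.052 in Derlin-1 KO, with 4 of 18 genes above 0 (44% of all genes) and 8 below both controls (17.9% of all genes), and of 0.00375 in Derlin-2 KO. Atp5b, the catalytic beta subunit and the brightest gene of the complex, gave 17.40 and 17.36 in Derlin-1 controls and 17.31 and 17.35 in KO (-0.052, SE 0.12). In the Derlin-2 line the 4 arrays fell at 17.26 and 17.06 for the controls and 17.06 and 17.26 for the KO, with a difference of 0.00235.

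The ring subunit c is encoded by Atp5g1, Atp5g2 and Atp5g3, which give the same mature protein. They differed by 0.019, -0.11 and -0.055 in Derlin-1 KO and by -0.032, -0.043 and 0.12 in Derlin-2 KO. The dimmer probes of Atp5g1 differed by 0.193 and -0.00748 in Derlin-1 KO and by -0.149 and 0.0849 in Derlin-2 KO. Atp5g3 had 16.42 and 16.52 in Derlin-2 controls and 16.56 and 16.63 in KO, without overlap (SE 0.096, adjusted p = 0.9992 by limma).

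Atp5s, of low signal, had the lowest difference of the 84 genes in Derlin-1 KO. Its log2 signal was 7.69 and 7.61 in the controls and 7.34 and 7.38 in the KO arrays, and 7.53, 7.66, 7.50 and 7.70 in the Derlin-2 controls and KO arrays. The Derlin-1 groups were well apart for this gene, with a difference of -0.29 (SE 0.11; 95% interval -0.57 to -0.012; adjusted p = 0.9999 by limma), whereas the Derlin-2 groups overlapped (0.0044). Its relative Atp5sl had the largest difference of the complex in Derlin-2 KO, 0.16 (SE 0.13). The log2 signal of Atp5sl was 12.98 and 12.76 in the controls and 12.97 and 13.09 in the KO arrays, which overlapped. Its dimmer probe differed by -0.0109 in that line. The pseudogene Atp5c1-ps differed by 0.0091 and 0.00037, and its probe may share signal with Atp5c1, which differed by -0.11 and 0.087.

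Of the genes whose promoter stretches are printed above, Atp5g2 and Cox6a1 have been given. Atp5k, a small subunit of complex V, differed by -0.026 and -0.058 in Derlin-1 and Derlin-2 KO, and Ndufa11, an accessory subunit of complex I, by -0.014 and 0.041. With the ETS site, Uqcr11 differed by -0.060 and -0.082, and Atp5h by -0.042 and -0.013.

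With the YY1 site, Ndufs7, a core subunit that holds an iron-sulphur cluster, differed by -0.011 and -0.0039. Ndufs4, an accessory subunit of complex I, had 13.66 and 13.56 in Derlin-1 controls and 13.54 and 13.52 in KO (difference -0.081), and overlapping groups in the Derlin-2 line (0.036). Ndufc1 had differences of 0.10 and 0.091, with 15.26 and 15.39 in Derlin-2 controls and 15.41 and 15.42 in KO. Its Derlin-1 groups overlapped, and none of these genes passed the test.

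Genes with several probes did not always agree. Of the 32 genes with more than 1 probe above background, the probes differed in sign in 18 in the Derlin-1 line and in 21 in the Derlin-2 line.

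The levels of the genes differed more between the lines than between KO and control. All 4 arrays of the Derlin-2 line lay above all 4 of the Derlin-1 line in 32 of 84 genes (38.1%; 16.3% of all genes) and below them in 7 (8.33%; 18.6% of all genes). The median difference, Derlin-2 line minus Derlin-1 line, was 0.11. Since each line had its own slide, line and slide cannot be told apart here. Markers of cell types also differed between the lines. Those of dentate granule neurons had a log2 summed signal of 15.47 to 15.90 in the Derlin-1 line and 15.07 to 15.14 in the Derlin-2 line. Those of CA pyramidal neurons were also lower in the Derlin-2 line, those of interneurons and choroid plexus higher, and the other lists overlapped. Their part in the levels of the 84 genes was not tested. By complex, the arrays of the Derlin-2 line lay above in 16 of 37 genes of complex I, 0 of 4 of complex II, 3 of 8 of complex III, 6 of 17 of complex IV and 7 of 18 of complex V.

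Cox7c and Cox7b2 had the largest gaps between the lines. Cox7c, a small subunit of complex IV, spanned 13.71 to 13.93 in the Derlin-1 line and 14.76 to 15.07 in the Derlin-2 line, a difference of the means of 1.06. Its second probe gave 13.97, 14.16, 14.05 and 14.05 in the Derlin-1 line and 14.18, 14.28, 14.31 and 14.25 in the Derlin-2 line, so that the gap was far smaller there. Cox7b2 spanned 7.38 to 8.39 in the Derlin-1 line and 8.94 to 9.56 in the Derlin-2 line, with a single probe. Within each line, neither gene passed the test between KO and control. Both probes of Cox7c lie in the last rows of the array, while that of Cox7b2 does not. The probes used for Atp5h, Cox7b and Ndufa8, with differences between the lines of 0.46, 0.409 and 0.373, lie there too. The 11 genes with their probe in these rows ranged from -0.315 (Ndufs1) to 1.06 (Cox7c). Cox4i1 and Uqcr10, at -0.251 and -0.157, also lay below 0. The part of array position in these gaps was not tested.

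**Figure D5:**
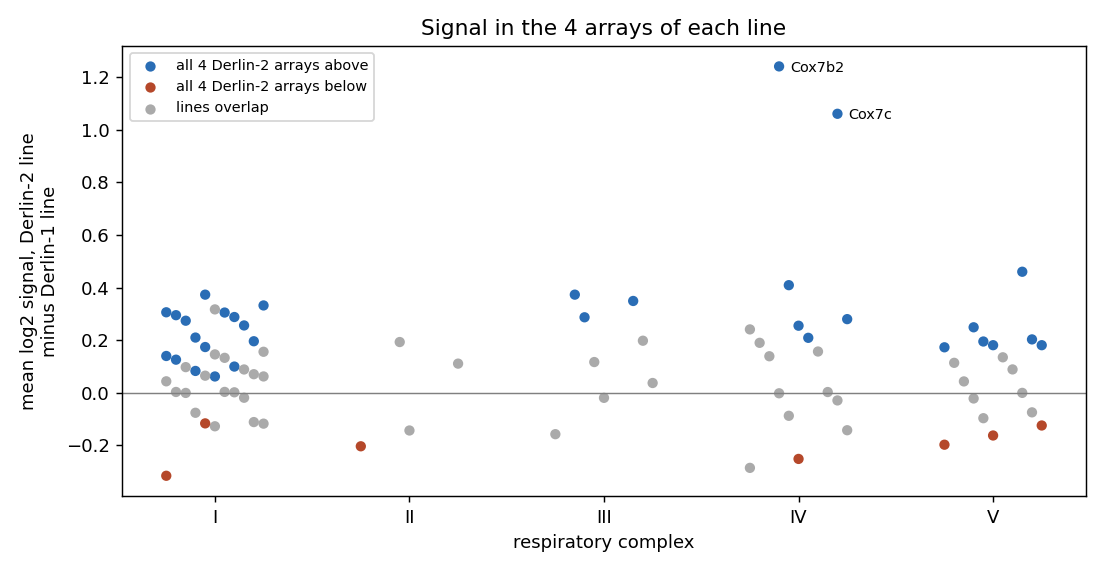
Difference of the mean log2 signal, Derlin-2 line minus Derlin-1 line (y axis), for each of the 84 genes by respiratory complex (x axis). Blue points mark the 32 genes with all 4 Derlin-2 arrays above all 4 Derlin-1 arrays, red points the 7 with all below, and grey points those that overlap; Cox7b2 and Cox7c stand above 1.

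Other genes of the pathway were described in the same way. The subunits that the symbols leave out numbered 15 on the array, among them 11 encoded in mitochondrial DNA, together with Cyc1, the cytochrome c1 of complex III, Ndufab1, the acyl carrier of complex I, and Usmg5 and 2010107E04Rik of complex V. None passed the test, and their median was -0.035 in Derlin-1 KO and 0.051 in Derlin-2 KO. In Derlin-1 KO, 3 of the 15 lay below both controls (17.9% of all genes) and 1 above (16.2%). With quantile normalization, the share below was thus smaller than among the 84 genes (36.9%). With 75th percentile scaling in its place, 2 of 15 lay below, beside 15 of the 84 genes (12.8% of all genes). In Derlin-2 KO, 1 lay below both controls (14.6% of all genes) and 1 above (17.9%), and 11 had a difference above 0 (52.3% of all genes). Cyc1 gave 15.46 and 15.41 in Derlin-1 controls and 15.36 and 15.37 in KO, and 15.58 and 15.53 in Derlin-2 controls and 15.66 and 15.71 in KO. Its KO arrays thus lay beyond both controls on opposite sides in the lines (5.64% of all genes). Among mitochondrial transcripts, ATP8 differed by -0.15 and -0.072, with KO arrays below controls in both lines, CYTB by 0.13 and 0.045, ND1 by -0.050 and -0.24, and ND4 by -0.018 and 0.11.

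Of 50 assembly factors, 0 passed the test in either line, and 13 lay below both controls (17.9% of all genes) and 5 above (16.2%) in Derlin-1 KO. In Derlin-2 KO, 5 lay below (14.6% of all genes) and 12 above (17.9%). With the deposited log2 values, 4 lay below (13.4% of all genes) and 19 above (20.9%) in Derlin-2 KO. Acad9, needed for complex I assembly, had a difference of 0.445 in Derlin-1 KO (adjusted p = 0.9999 by limma) and Taco1, a translational activator of COX1, -0.27. In Derlin-2 KO, Ndufaf7 differed by 0.30 and Pet117 by -0.34. Among 18 regulators of mitochondrial biogenesis, 0 were called. Nrf1 differed by -0.14 and 0.21 in the lines, Gabpa by 0.017 and 0.10, and Yy1 by -0.085 and 0.15, and Twnk, the mitochondrial DNA helicase, by -0.18 and 0.19.

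No gene of the pathways that feed the chain passed the test in either line. In the tricarboxylic acid cycle with pyruvate entry, 10 of 20 genes lay below both Derlin-1 controls (17.9% of all genes) and 1 above (16.2%), with a median of -0.096 beside -0.020 over all genes. With 75th percentile scaling the median was -0.070 and 10 of 20 lay below (12.8% of all genes). Pdhb, a pyruvate dehydrogenase subunit, differed by -0.20, Sucla2, a succinyl-CoA ligase subunit, by -0.19, and Mpc2, a mitochondrial pyruvate carrier subunit, by -0.16. In glycolysis 9 of 17 lay below both controls (17.9% of all genes) and 0 above (16.2%), with a median of -0.073. Under 75th percentile scaling 4 of 17 lay below (12.8% of all genes). Pfkl, the liver-type phosphofructokinase, differed by -0.24 (adjusted p = 0.9999 by limma). In Derlin-2 KO the cycle had 2 genes below (14.6% of all genes) and 3 above (17.9%) and glycolysis 6 below and 4 above, with medians of 0.013 and -0.050. With the deposited log2 values the cycle had 0 below (13.4% of all genes) and 9 above (20.9%), with a median of 0.057. Glycolysis then had 3 below and 6 above. With 75th percentile scaling the median of the cycle was 0.055. Hk2, a hexokinase, differed by 0.46 in Derlin-2 KO (adjusted p = 0.7235 by limma). Among 16 genes of coenzyme Q synthesis and the mobile carriers and 13 mitochondrial chaperones and proteases, 0 were called in either line. Atf5, a regulator of the mitochondrial stress response, had the smallest p of the last list in both lines, with differences of 0.41 and 0.39 (adjusted p = 0.9999 and 0.9494 by limma).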

How the data were processed

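Per the file headers, the deposited scanner files hold spot intensity from Agilent Feature Extraction 10.7.1.1, background-subtracted and detrended. The authors' deposited tables hold log2 values, quantile-normalized in GeneSpring and centred on each probe's median, and were used for gene symbols and as an alternative. Their columns of fold changes were not used. Control spots (3671) and outlier spots were left out, signals under 1 were set to 1, quantile normalization was applied to the log2 values of all 8 arrays, and spots of a probe were averaged. Probes well above background on both arrays of at least 1 group were kept (40001 of 56605). A gene was represented by its brightest probe. A model of 4 group means was fitted with limma 3.58.1 in R 4.3.3, with 4 residual and 2.08 prior degrees of freedom, two-sided tests, Benjamini-Hochberg adjustment over all kept probes and a threshold of 0.05. An exact test of 2 against 2 arrays cannot give p below 0.333. The number of arrays limits the precision. Lists were described by counts and medians without a set test. The fit was tested on simulated data. No spot was saturated (0 on each array).

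Named genes were the brightest and the most different member of each complex, the 5 smallest p-values of each contrast, the subunits of complex II, the isoform sets, members that the filter left out, and up to 3 genes of each further list by p. Genes given for other reasons (Cox7c, Ndufa2, Atp5c1, Pvalb, Gad1, Gad2, Slc32a1, Gabpa and Yy1) were chosen after their values were seen. The genes and lists were chosen with earlier results of these data known. Gene symbols are those of the array design, which was built on an older assembly, so positions are given only for RefSeq promoter windows. The protein sequences of the isoforms were not analysed here.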

Additional observations from a re-analysis of the deposited data

How the results depend on the processing

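No oxidative phosphorylation gene was called in either line, or for the difference between them, under any alternative run. The signs were less stable: of 84 genes, 31 in Derlin-1 KO and 23 in Derlin-2 KO kept the sign of their difference under all alternatives that held them, and those that did not had differences of at most 0.118 and 0.137 in size. Cox7b2 in Derlin-1 KO, at 0.0753, ranged from -0.428 to 0.579. The genes with the 5 smallest p-values and the most different gene of each complex kept their sign. The position of the list did depend on the processing. With 75th percentile scaling, the median difference in Derlin-1 KO was -0.00996 for complex I, -0.0555 for complex II and 0.00896 for complex III, and 15 genes lay below both controls (12.8% of all genes). With the deposited log2 values, these were -0.0663 for complex II, -0.00184 for complex III and 16 genes (13.9%). With the mean of all probes of a gene, complex II had a median of -0.0581, 19 genes lay below both controls (18.6%) and 5 above (16%). The count above was 1 with normexp (16.3%). The filter for bright probes leaves out Cox6a2, which lay above both controls in Derlin-1 KO. The count above with that filter is therefore not compared here.

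In Derlin-2 KO, 75th percentile scaling gave a median of 0.0666 (0.0451 above all genes), with 17 genes below 0, 28 above both controls (20.8% of all genes) and 1 below (13.7%), and medians of 0.0675, 0.059, 0.0824 and 0.0689 for complexes I, II, III and V. The deposited log2 values gave 0.0684 (0.0461 above all genes), with 15 genes below 0, 25 above both controls (20.9%) and 2 below (13.4%), and 0.0692, 0.0608, 0.0842 and 0.0707 for those complexes. With normexp, 4 genes lay below both controls (14.3%). The cause of these shifts was not tested.

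Leaving out 1 array moved the median in Derlin-1 KO between -0.0794 (without control replicate 1) and -0.0164 (without control replicate 2), its distance from all genes between -0.0874 and 0.0129, and the number of genes below 0 between 47 and 76. The ranges were -0.11 to -0.0628 for complex II, -0.0786 to 0.00687 for complex III and -0.0922 to 0.0404 for complex IV. In Derlin-2 KO they were -0.000472 to 0.0198 for the median, -0.0109 to 0.0171 for its distance from all genes, -0.0404 to 0.0616 for complex II and -0.0124 to 0.0454 for complex V. For the difference between the lines they were -0.0737 to -0.0136, and -0.0621 to 0.0281 relative to all genes.

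Over all genes, 9 were called in Derlin-2 KO, against 1 with normexp, 15 with no filter, 1 with probes well above background on all arrays, 0 with bright probes, 1 without the last rows of the array, 0 with the arrays of the line only and 2 to 25 when 1 array was left out. With the replicate block, 0 genes and 0 members were called in Derlin-2 KO, and the median of the members was -0.0433 in Derlin-1 KO and 0.00375 in Derlin-2 KO. Deviations of arrays with the same replicate number correlated at 0.268 (Derlin-1) and -0.0981 (Derlin-2). The labels tie no arrays by number, so the block was kept as an alternative. The normexp alternative was chosen after seeing the data: it used the median spot signal, and that on the mean signal was not run. With 2 arrays a group, differences within about 0.258 on the log2 scale, the median width of an interval on either side, were not resolved.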
